A study of Homo sapiens with 6 samples.

Results

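The genes described are those of the integrin and laminin families, 38 of the 62492 genes listed for each library. They were chosen by symbol, with earlier results of these data known, and comprise 18 integrin α subunits, 8 integrin β subunits and 12 laminin chains. Poly(A) RNA was sequenced from HCT116, an established line of human colorectal carcinoma cells that had received 20 nM of siControl or of siNONO with a lipid reagent. Each group had 3 libraries, labelled Set 1, Set 2 and Set 3, so that each Set held a siControl library (genotype label WT) and a siNONO library (genotype label NONO knockdown). The siNONO duplex targets NONO, a nuclear RNA- and DNA-binding protein of paraspeckles, and the comparison asks which transcripts differ when it is depleted. A single siNONO duplex was compared with a control duplex, so loss of NONO and any other effect of that duplex cannot be told apart.

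Integrins are membrane receptors built of an α and a β subunit, and they tie the extracellular matrix outside the cell to actin or keratin filaments inside it. Laminins are secreted trimers of an α, a β and a γ chain, and they form the sheet of the basement membrane on which epithelial cells sit. In intestinal epithelium the receptors α3β1, α6β1 and α6β4 bind laminin, α2β1 binds collagen and laminin, and α5β1 and the αv integrins bind fibronectin and other ligands with an RGD motif.

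The estimated counts summed to between 21765393 and 32659002 per library. The targeted gene was examined first: NONO had 496, 495 and 516 CPM (counts scaled to library size) in siControl and 89.5, 95.5 and 100.4 CPM in siNONO, in the order of the Sets. The log2 fold change of NONO was -2.40 (standard error 0.0337, edgeR adjusted p = 2.5e-13), which leaves 18.9% of the siControl level. Across all genes, 7924 of 17000 tested passed the threshold of 0.05 on the p-value of edgeR's quasi-likelihood F-test after Benjamini-Hochberg adjustment, 3939 higher and 3985 lower in siNONO. Such genes are said to be called, and the Set was a term of the model. On TPM with limma the split was 1643 higher and 3614 lower. The summed TPM of 8 epithelial colon markers ran from 2957 to 3103 in siControl and from 2880 to 3203 in siNONO. KRT8, KRT19 and KRT18 held most of that sum, at siControl means of 1251, 781 and 617 TPM. Of the 7 markers tested, 3 were called higher and 0 lower, beside 46.6% of all genes called in either direction. The 3 were CLDN7 (log2 fold change 1.09), EPCAM (0.32) and KRT19 (0.14), and VIL1 had only 21.9 counts in all.

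HCT116 cells transcribed the subunits of the epithelial laminin, collagen and fibronectin receptors together with the chains of laminins 511 and 521, and, apart from ITGAE, little of the leukocyte integrins. Of the 38 genes, 15 stood at 10 TPM or more in every library, where TPM is RSEM's abundance after correction for transcript length and library size. The β1 subunit ITGB1, partner of most integrin α subunits, had the highest level at 285 ± 11.3 TPM in siControl (SD, n = 3). It was followed by ITGA3, the α subunit of the laminin receptor α3β1, at 171 ± 12.2 TPM. The laminin α5 chain LAMA5 stood at 150 ± 20.2 TPM and the laminin β2 chain LAMB2 at 129 ± 9.86 TPM. The β4 subunit ITGB4, which pairs with α6 in hemidesmosomes, stood at 123 ± 5.13 TPM. ITGB1 was above every other gene without overlap, whereas the siControl ranges of ITGA3 and LAMA5 overlapped, as did those of LAMA5 and LAMB2 and those of LAMB2 and ITGB4.

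Below these came a middle group whose siControl means ran from 70.4 TPM for ITGA6, the α subunit shared by α6β1 and α6β4, to 30.1 TPM for ITGAV, the αv subunit. In that order the group held ITGA6, LAMC1, ITGB5, ITGA5, LAMB1, ITGAE, ITGA2 and ITGAV. Neighbours whose siControl ranges overlapped were ITGA6 with LAMC1, LAMC1 with ITGB5, ITGA5 with LAMB1, and ITGAE with ITGA2. The level of ITGAE, whose protein pairs with β7 on intraepithelial lymphocytes and binds E-cadherin, rests on short transcripts. LAMB3 at 20.1 ± 0.504 TPM and ITGA7 at 12.3 ± 0.919 TPM came below them, and LAMA2 averaged 6.28 ± 1.71 TPM.

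**Figure D1:**
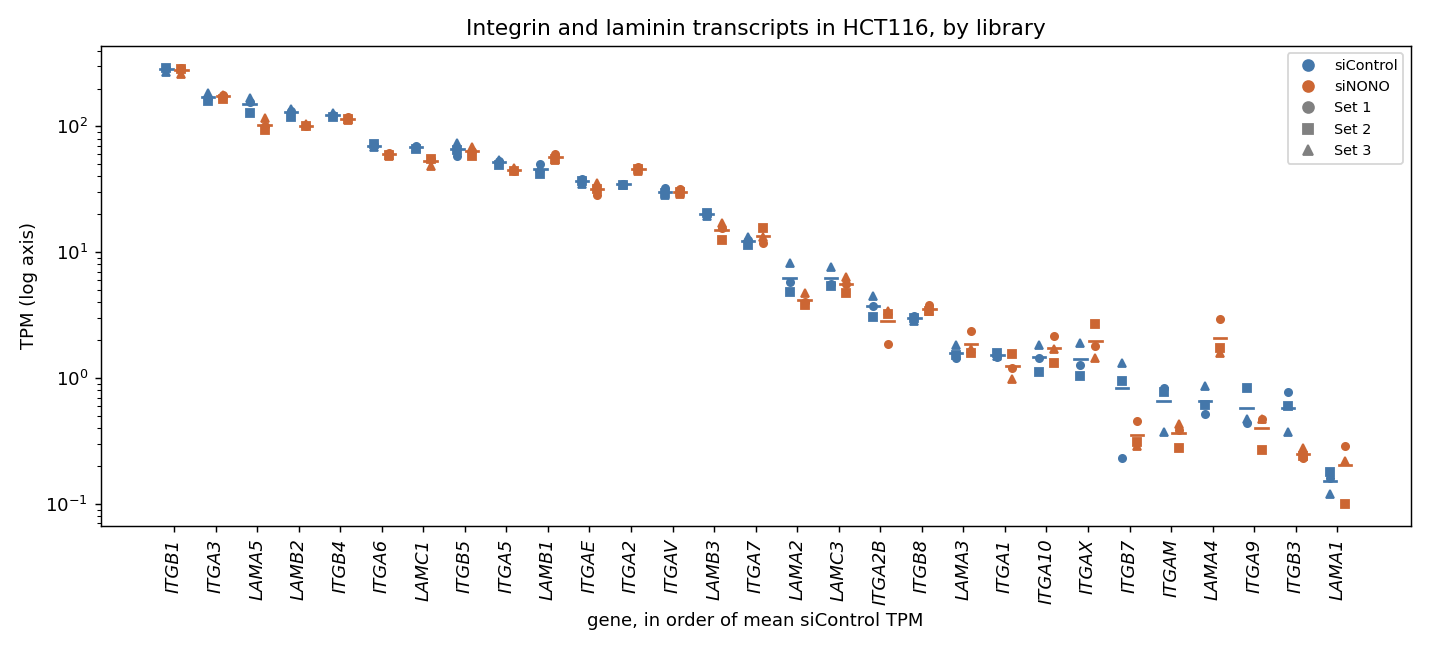
TPM of the tested integrin and laminin genes described here in each library, on a log axis, with siControl in blue and siNONO in orange, marker shapes for the Sets and short bars for group means. ITGB1 stands highest at 285 TPM in siControl, and LAMA1 lowest at 0.153 TPM; LAMA4 shows the widest gap between the groups among genes that were called.

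The genes not expressed at this depth, with fewer than 10 counts in all 6 libraries together, were ITGA4, ITGA8, ITGB2 and LAMB4. ITGB2 encodes the β2 subunit shared by the leukocyte integrins and had 4 counts in all. ITGA4 encodes the α4 subunit of lymphocyte homing receptors and had 7.66 estimated counts in all. ITGA8 and LAMB4 had no count in siControl, which at 3 counts allows a level of up to between 0.0919 and 0.138 CPM per library. A further 4 genes had too few counts for the test: ITGA11 with 14 counts in all, ITGAD and ITGAL with 15 each, and ITGB6, the β subunit of αvβ6, with 47.1. Another 4, ITGAM, ITGB3, ITGA9 and LAMA1, were tested but stayed under 1 TPM in every library.

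Of the 30 genes tested, 14 were called between siNONO and siControl, 8 higher and 6 lower, and 16 were not. The share called over all genes was 46.6%, with 23.2% higher and 23.4% lower, so the family was called about as often as genes at large. With limma on TPM, which changes the unit and the test together, 4 members were higher and 7 lower. The median log2 fold change of the 30 genes was 0.06, beside -0.00 over all genes tested, and it was 0.06, 0.07 and 0.02 in Sets 1, 2 and 3. On TPM it was -0.11, beside -0.07 over all genes. Most changes were small: 12 of the 14 called genes moved by less than 0.5 on the log2 scale, and only LAMA4 passed 1, a size that 2.88% of all genes reached with a call. CPM did not overlap between the groups for 15 of the 30, beside 47.8% of all genes. In 13 of the 14 called genes, all but LAMA3, the direction was the same in every Set.

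**Figure D2:**
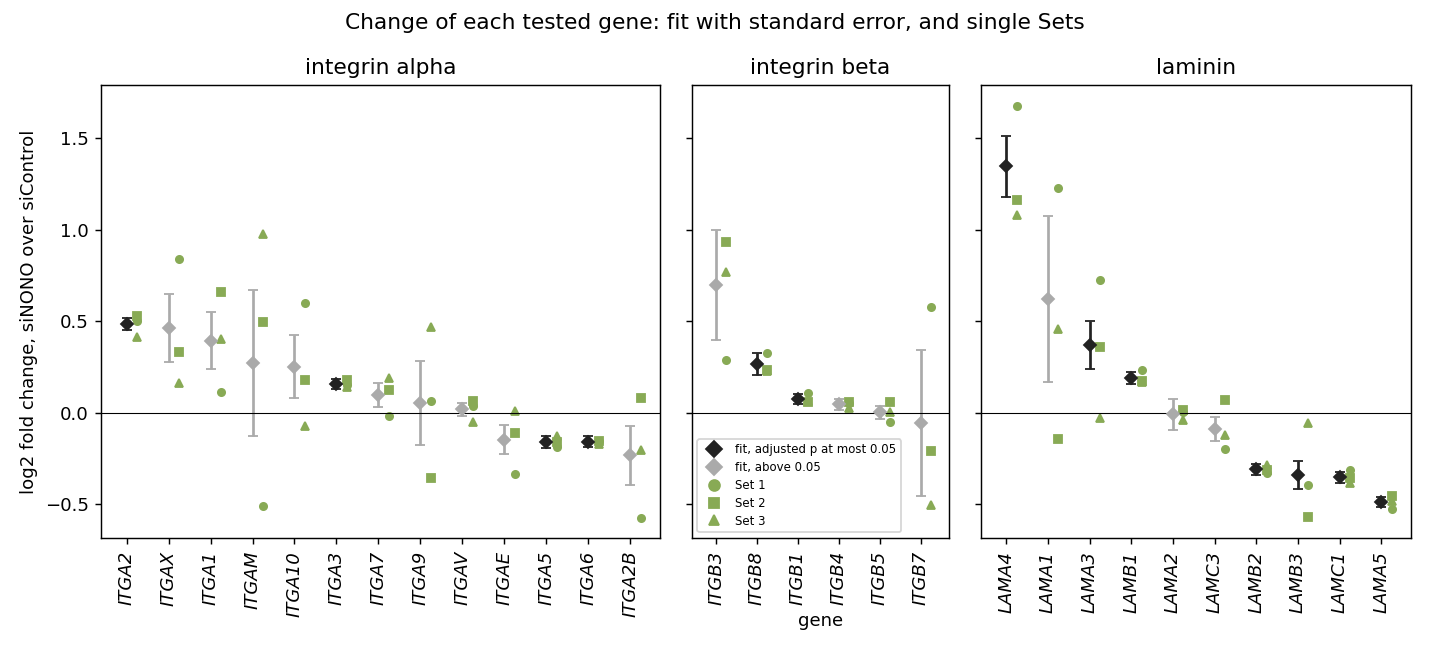
Log2 fold change of siNONO over siControl for each tested gene described here, with diamonds and bars for the edgeR estimate and its standard error (black where called) and green markers for the single Sets. LAMA4 is the highest called value at 1.35 and LAMA5 the lowest at -0.49; the wide bars belong to genes with few counts.

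Among the integrin α subunits, ITGA2 and ITGA3 rose, ITGA5 and ITGA6 fell, and 9 of the 13 tested were not called. The share called over all genes was 46.6%, with 23.2% higher and 23.4% lower. ITGA2, the α subunit of the collagen receptor α2β1, had 183, 177 and 169.9 CPM in siControl and 258, 256 and 226 CPM in siNONO, by Set. All siNONO libraries were above all siControl libraries. The fitted log2 fold change was 0.48 (standard error 0.0328, edgeR adjusted p = 1.4e-07), a rise of 39.8%. It was called in the same direction under all 16 alternatives tried.

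ITGA3 and ITGA6, the α subunits of α3β1, α6β1 and α6β4, moved by little and in opposite directions. ITGA3 had 465, 452 and 489.9 CPM in siControl and 515, 512 and 539.6 CPM in siNONO, and the groups did not overlap. It rose by 0.16 on the log2 scale (standard error 0.0277, edgeR adjusted p = 5.2e-04), but on TPM the change was 0.03 and was not called (limma adjusted p = 0.59). ITGA6 had 236, 239.6 and 216 CPM in siControl and 212, 215 and 192 CPM in siNONO. The groups were separate by the narrow margin of 216 against 215 CPM, and within each Set the siNONO library was lower. ITGA6 fell by 0.16 on the log2 scale (standard error 0.0294, edgeR adjusted p = 6.6e-04).

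The fibronectin receptor subunit ITGA5 also fell, from 138, 140.01 and 147 CPM in siControl to 121, 125 and 135 CPM in siNONO. Every siNONO library was below every siControl library. Its log2 fold change was -0.16 (standard error 0.0321, edgeR adjusted p = 0.0013). ITGAV, the α subunit that pairs with several β subunits, had a log2 fold change of 0.02 (edgeR adjusted p = 0.72), with overlapping groups.

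ITGA1, the α subunit of the other collagen receptor α1β1, lies next to ITGA2 on chromosome 5 with a gap of 30.1 kb. Its counts were 119, 81 and 66 in siControl against 112, 131 and 112 in siNONO. Its CPM did not overlap between the groups, at 2.96 to 3.61 against 3.91 to 4.71, but the log2 fold change of 0.39 (standard error 0.156) missed the threshold (edgeR adjusted p = 0.055). Without either library of Set 1 it was 0.55 and was called (edgeR adjusted p = 0.034 and 0.040), and without siNONO replicate 2 it was 0.26. On TPM the sign turned, at -0.17. ITGA1 spans PELO on the same strand, which had 6558 counts in all, and RSEM's split of reads between them makes the ITGA1 value uncertain.

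Of the other α subunits, ITGA7, a laminin receptor subunit known from muscle, had a log2 fold change of 0.10. ITGA2B, the platelet αIIb subunit, had -0.23, and ITGAE had -0.15. None was called, and the groups overlapped for each. Without either library of Set 1 the value was -0.06 for ITGA2B and -0.05 for ITGAE, and without siNONO replicate 3 ITGAE stood at -0.22 and was called (edgeR adjusted p = 0.04987). ITGAX and ITGAM, α subunits of leukocyte β2 integrins, had 0.46 (edgeR adjusted p = 0.06) and 0.27. The counts of ITGAX were 60, 70 and 58 in siControl against 95, 90 and 83 in siNONO. Its log2 fold change was 0.26 without either library of Set 1 and 0.60 without either library of Set 3, where it was called (edgeR adjusted p = 0.039 and 0.035). These leukocyte subunits stood beside leukocyte markers whose summed TPM over 7 genes was 2.54 to 6.24 in siControl and 6.62 to 7.72 in siNONO. Of that list only CD68 was tested, and it rose by 1.40 on the log2 scale (edgeR adjusted p = 1.8e-05), while the defining markers PTPRC, CD3E and MS4A1 had 1 count each in all 6 libraries together. The libraries were labelled as HCT116 cells alone, and the source of the ITGAX and CD68 reads was not tested. The remaining α subunits tested, ITGA9 and ITGA10, had log2 fold changes of 0.05 and 0.25 and were not called.

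Of the 6 integrin β subunits tested, ITGB1 and ITGB8 were called higher and none was called lower. Beside them, 23.2% of all genes were called higher and 23.4% lower. ITGB1 had 690.4, 718 and 638 CPM in siControl and 743, 748 and 666 CPM in siNONO. The groups overlapped, although the siNONO library was higher within each Set. Its log2 fold change was 0.08 (standard error 0.0274, edgeR adjusted p = 0.038), it was lost without the Set block (adjusted p = 0.34), and on TPM the sign turned, at -0.03. Leaving out either library of Set 1 or of Set 2 also ended the call, with adjusted p values up to 0.32.

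ITGB4, which anchors hemidesmosomes to keratin filaments, had a log2 fold change of 0.04 (standard error 0.0285, edgeR adjusted p = 0.23). ITGB5, a partner of αv, had 0.00 (standard error 0.0366, edgeR adjusted p = 0.97). Within each Set the 2 groups of ITGB5 differed by at most 0.06 on the log2 scale. ITGB8, an αv partner that binds latent TGF-β, rose from 18.6, 16.9 and 16.04 CPM to 23.3, 19.9 and 18.8 CPM. Its groups were separate only just, at 18.6 and 18.8 CPM, and the log2 fold change was 0.27 (standard error 0.0601, edgeR adjusted p = 0.0028). The call on ITGB8 was lost in DESeq2 (adjusted p = 0.088) and on TPM. ITGB7, a lymphocyte subunit, had 10 to 14 counts in every library and a log2 fold change of -0.06.

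Of the 11 laminin chains tested, 4 were called higher, 4 lower and 3 were not called. Over all genes, 23.2% were called higher and 23.4% lower. Chains of a single trimer did not always share a direction. LAMA5, LAMB2 and LAMC1, whose products form laminin-521, a basement membrane laminin of mature epithelium, all fell. LAMB1, which takes the place of LAMB2 in laminin-511, rose slightly. LAMB3, a chain of laminin-332, the anchoring laminin of hemidesmosomes, fell as well. LAMA4, the α chain of laminins of vessels and muscle, showed the highest rise of the family from a low level.

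LAMA5 encodes the α5 chain, the main laminin α chain of adult epithelium, and lies on the minus strand of chromosome 20 of GRCh37, from 60883011 to 60942368. It had 513, 465 and 580.0 CPM in siControl and 356, 338 and 416 CPM in siNONO. Every siNONO library was below every siControl library, and Set 3 was highest in each group. The log2 fold change was -0.49 (standard error 0.0287, edgeR adjusted p = 4.3e-08), which leaves 71.3% of the siControl level, and the values within the Sets were -0.53, -0.46 and -0.48.

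LAMB2, the β2 chain, on the minus strand of chromosome 3 from 49158547 to 49170551, had 157, 152 and 169.9 CPM in siControl and 125, 122 and 139 CPM in siNONO. The log2 fold change of LAMB2 was -0.31 (standard error 0.0314, edgeR adjusted p = 4.9e-06). LAMC1, the γ1 chain of most laminins, on the plus strand of chromosome 1 from 182992555 to 183114727, had 253, 267 and 266 CPM in siControl and 203, 209 and 203 CPM in siNONO. The log2 fold change of LAMC1 was -0.35 (standard error 0.0303, edgeR adjusted p = 1.2e-06). For LAMB2 and LAMC1 the groups were separate, and the Sets ranged only from -0.28 to -0.33 and from -0.31 to -0.39. LAMA5, LAMB2 and LAMC1 were each called lower under all 16 alternatives.

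LAMB1, the β1 chain, had 129, 129 and 128 CPM in siControl and 151, 146 and 144 CPM in siNONO, without overlap. It rose by 0.19 on the log2 scale (standard error 0.0323, edgeR adjusted p = 3.5e-04). The change of LAMB1 exceeded that of LAMB2 by 0.56, 0.48 and 0.45 on the log2 scale in Sets 1, 2 and 3. On the TPM scale, LAMB1 was the lowest of the laminin-511 chains in every siControl library, at 41.8 to 50.1 TPM, and LAMC1 was the lowest in every siNONO library, at 48.9 to 55.6 TPM. In the siNONO library of Set 2 they nearly tied, with LAMC1 at 55.3 and LAMB1 at 55.43 TPM. The transcript length that enters TPM was shorter for LAMB1 in siNONO, and on log2(TPM + 1) its rise was 0.30.

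The bases just before the annotated starts of the 3 chains of laminin-521, which fell, and of LAMA4, which rose most, are shown so that they can be read beside the counts. They are the 200 bases upstream of the start site from RefSeq on GRCh38.p14, read in the direction of transcription, with capitals for the GC box GGGCGG or its reverse complement, the letters bound by Sp1-type factors. They lie at chr20:62367313-62367512 (minus strand) for LAMA5, chr3:49133051-49133250 (minus strand) for LAMB2, chr1:183023220-183023419 (plus strand) for LAMC1 and chr6:112254568-112254767 (minus strand) for LAMA4.
LAMA5: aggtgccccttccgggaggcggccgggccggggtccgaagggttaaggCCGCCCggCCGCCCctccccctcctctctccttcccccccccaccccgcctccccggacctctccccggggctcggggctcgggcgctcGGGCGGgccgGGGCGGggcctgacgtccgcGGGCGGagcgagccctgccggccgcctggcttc
LAMB2: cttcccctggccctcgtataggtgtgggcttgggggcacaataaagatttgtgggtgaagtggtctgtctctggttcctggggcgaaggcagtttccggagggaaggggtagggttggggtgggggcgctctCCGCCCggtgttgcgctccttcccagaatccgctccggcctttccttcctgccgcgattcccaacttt
LAMC1: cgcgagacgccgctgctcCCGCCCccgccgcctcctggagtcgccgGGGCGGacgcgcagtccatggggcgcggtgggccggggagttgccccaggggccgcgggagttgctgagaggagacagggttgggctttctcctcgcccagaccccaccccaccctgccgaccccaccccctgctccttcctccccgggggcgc
LAMA4: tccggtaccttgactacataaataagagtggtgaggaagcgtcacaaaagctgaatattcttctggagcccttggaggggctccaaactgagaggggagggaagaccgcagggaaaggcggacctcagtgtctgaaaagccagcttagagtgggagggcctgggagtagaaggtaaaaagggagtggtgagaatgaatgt
The LAMA5 stretch held 5 GC boxes, that of LAMB2 held 1, that of LAMC1 held 2 and that of LAMA4 held 0. In the longer RefSeq window, from 250 bases before to 50 after each start, LAMA5 held 5, LAMB2 held 1, LAMC1 held 3 and LAMA4 held 0. In that same window LAMB1, which rose, held 4, and LAMA3, called higher, held 1. In the whole table, which covers this longer window, 26 of the 38 genes had an entry. A GC box stood in 14 of the 26, beside 48.3% of 27305 genes with an entry. The TATA box TATAAA stood in 2 of the 26, ITGA6 and ITGB1, beside 14.0%, on either strand. The core letters of the interferon-stimulated response element stood in 1, ITGB5, beside 4.4%. Such matches describe letters and no binding.

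LAMB3, the β3 chain of laminin-332, had 45.4, 48.2 and 44.3 CPM in siControl and 34.5, 32.5 and 42.6 CPM in siNONO. The groups did not overlap, but the siNONO library of Set 3 was close to siControl. LAMB3 fell by 0.34 on the log2 scale (standard error 0.0753, edgeR adjusted p = 0.0024), with -0.39, -0.57 and -0.06 in the Sets. Without siControl replicate 2 the value was -0.22 (adjusted p = 0.028) and without siNONO replicate 2 it was -0.23 (adjusted p = 0.022).

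LAMA3, the α3 chain, also a chain of laminin-332, stood at 1.44 to 1.83 TPM in siControl and 1.57 to 2.35 TPM in siNONO, below LAMB3 in every library. It had 5.61, 5.51 and 7.34 CPM in siControl and 9.33, 7.08 and 7.19 CPM in siNONO. The groups overlapped, and the siNONO library of Set 1 stood apart from the other two. Its log2 fold change was 0.37 (standard error 0.132, edgeR adjusted p = 0.037) but only 0.17 without siControl replicate 1 (adjusted p = 0.39) or without siNONO replicate 1 (adjusted p = 0.42). Without either library of Set 3 it was 0.56, and without either library of Set 2 the call was lost, with adjusted p values of 0.064 and 0.070.

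**Figure D3:**
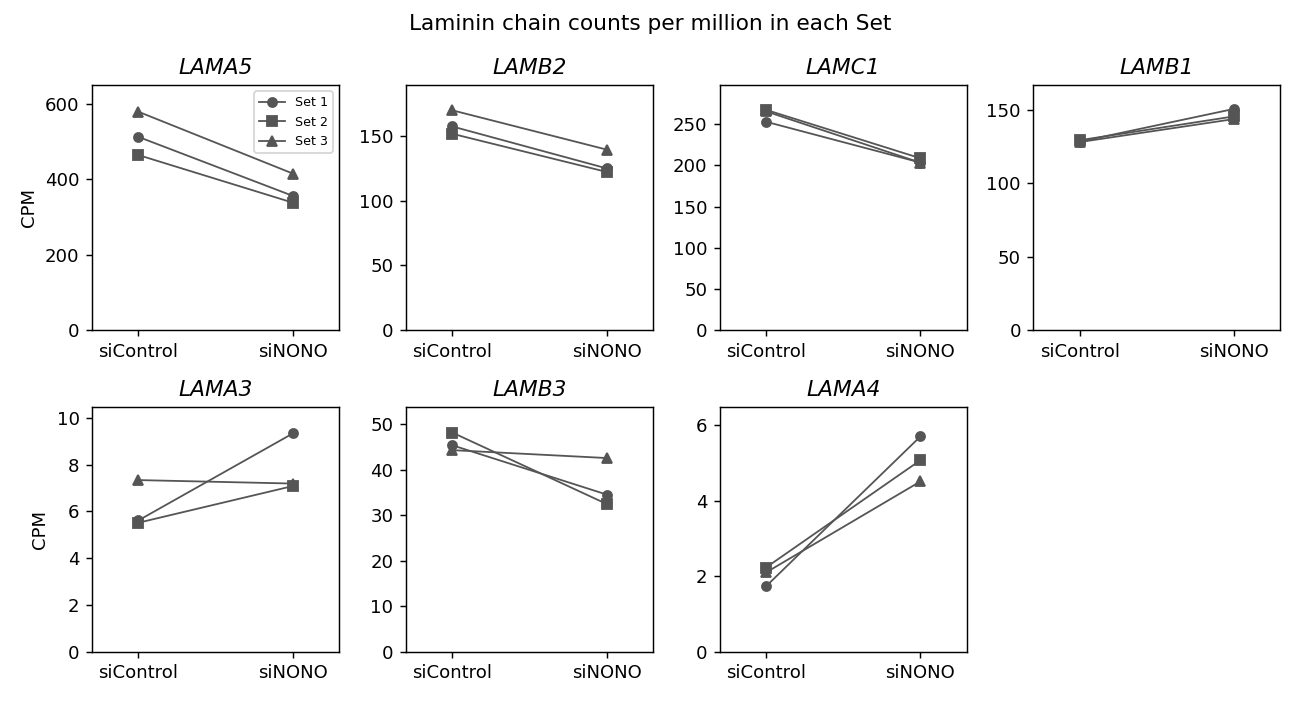
CPM of 7 laminin chains in the siControl and siNONO library of each Set, joined by a line per Set, with every axis starting at 0. The lines of LAMA5, LAMB2 and LAMC1 fall and those of LAMB1 and LAMA4 rise in all 3 Sets, while Set 3 is nearly flat for LAMA3 and LAMB3 at -0.03 and -0.06 on the log2 scale.

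Starts of LAMA3 and LAMB3 in the RefSeq table also held the AP-1 letters TGANTCA, as did ITGA5 at -6 from its start. These 3 of 26 genes stand beside 9.4% of all genes with an entry. A gene was counted if any of its starts matched, and the other LAMB3 starts in the table held no such letters. The stretches are shown because both genes encode chains of laminin-332 and carry these letters, given in capitals, and they lie on GRCh38.p14 at chr18:23872878-23872918 and chr18:23872934-23872974 (plus strand) for LAMA3 and at chr1:209651418-209651458 (minus strand) for LAMB3.
LAMA3 at -125: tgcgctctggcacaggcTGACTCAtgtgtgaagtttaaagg
LAMA3 at -69: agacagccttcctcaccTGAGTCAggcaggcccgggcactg
LAMB3 at -67: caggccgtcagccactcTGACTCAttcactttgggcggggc

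LAMA4 rose most of all 30 genes. It lies on the minus strand of chromosome 6 from 112429134 to 112576141 and its counts were 57, 61 and 46 in siControl against 163, 141 and 126 in siNONO. These are 1.73, 2.23 and 2.10 CPM against 5.70, 5.07 and 4.51 CPM, with the groups far apart. Its log2 fold change was 1.35 (standard error 0.168, edgeR adjusted p = 3.0e-05), a fold of 2.54, and the Sets gave 1.68, 1.16 and 1.08. The level remained low at 2.09 ± 0.752 TPM in siNONO (SD, n = 3), beside 103 ± 12.0 TPM for LAMA5. LAMA4 was called higher under all 16 alternatives.

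The other laminin chains were not called on counts. LAMA2, the α2 chain of muscle and nerve laminin, had a log2 fold change of -0.01 (standard error 0.0843) with overlapping groups in CPM. In TPM its groups did not overlap, at 4.83 to 8.17 in siControl and 3.80 to 4.78 in siNONO, and on log2(TPM + 1) it was called lower at -0.46 (limma adjusted p = 0.030). LAMC3, the γ3 chain, had -0.09 (edgeR adjusted p = 0.31). LAMA1, the α1 chain of early embryonic laminin, had 6, 10 and 7 counts against 15, 9 and 13 counts, and its log2 fold change of 0.62 had a standard error of 0.454 (edgeR adjusted p = 0.29), so a change was not detectable at this depth.

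The deposited files also give a length per gene, the mean of its transcripts weighted by their estimated shares, which the choice of genes did not use. This length did not overlap between the groups for 5 of the 30 genes, 4 longer and 1 shorter in siNONO. Over the 14129 tested genes whose length varied the share was 13.6%, with 6.57% longer and 7.01% shorter. ITGB3, the β3 subunit of the vitronectin receptor αvβ3, had 1630, 1379 and 2844 bases in siControl and 5941 bases in every siNONO library. Its counts were 26, 14 and 15 in siControl and 28, 29 and 34 in siNONO, higher in every siNONO library, whereas its TPM was lower, at 0.583 ± 0.206 against 0.25 ± 0.0265 (SD, n = 3). The log2 fold change on counts was 0.70 (edgeR adjusted p = 0.078), and on log2(TPM + 1) it was -0.33 (limma adjusted p = 0.077).

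ITGA1 had a length of 2782 to 3712 bases in siControl and 4135 to 5676 bases in siNONO. LAMA2 had 1870.03 to 2738 bases against 2798 to 3268 bases, and ITGAM had 977 to 1443 against 1886 to 3160 bases. The genes with longer estimated transcripts were all low, at under 10 TPM in every library. LAMB1, at 41.8 TPM or more, was the gene with a shorter length, from 3857 to 4485 bases in siControl to 3539 to 3744 bases in siNONO. For ITGB1 the lengths overlapped, and for ITGAE they were short in every library, at 729 to 735 bases in siNONO.

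**Figure D4:**
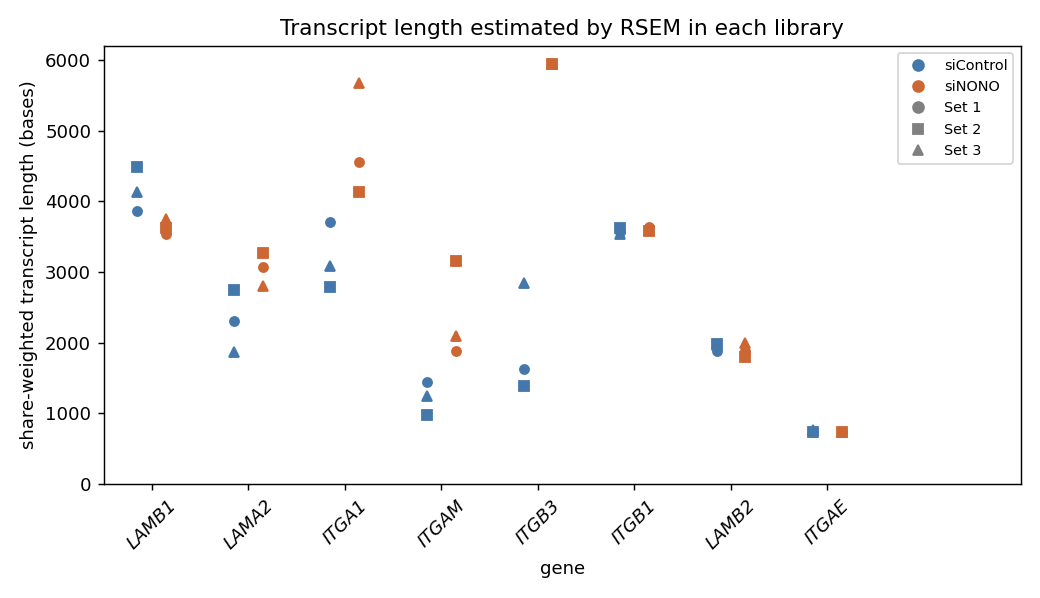
Share-weighted transcript length in bases for the 5 genes whose groups did not overlap, followed by ITGB1, LAMB2 and ITGAE for comparison, with siControl in blue, siNONO in orange and marker shapes for the Sets. ITGB3 stands at 5941 bases in all 3 siNONO libraries, one marker over the others, against 1379 to 2844 bases in siControl.

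Genes that work with integrins and laminins were counted from lists of their roles, and the counts are read beside the 46.6% of all genes that were called. The lists are short, and no list was tested as a whole. Of 7 tested basement membrane partners, 2 were called higher and 4 lower. Collagen IV chains went both ways, with COL4A4 at -0.49 (edgeR adjusted p = 2.5e-05) and COL4A3 at -0.38 (edgeR adjusted p = 0.0012), the α4 and α3 chains of 1 collagen trimer, and COL4A5, its α5 chain, at 0.35 (edgeR adjusted p = 6.6e-05). The heparan sulphate proteoglycan agrin, AGRN, rose by 0.25 (edgeR adjusted p = 1.8e-04), though its CPM overlapped between the groups. On TPM the groups overlapped for COL4A3, COL4A5 and AGRN, but not for COL4A4.

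Of 6 tested laminin receptors other than integrins, 2 were called higher and 3 lower. Dystroglycan, DAG1, which binds laminin α chains through its sugars, fell by 0.36 on the log2 scale (edgeR adjusted p = 3.0e-06), from 294 ± 15.1 to 228 ± 5.61 CPM (SD, n = 3). BCAM, a receptor for the laminin α5 chain, fell by 0.13 (edgeR adjusted p = 0.014), though its groups overlapped in CPM and in TPM. The syndecans SDC1 and SDC4, heparan sulphate coreceptors, rose by 0.42 (edgeR adjusted p = 1.5e-06) and 0.14 (edgeR adjusted p = 0.015). On TPM the groups of SDC4 overlapped.

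All 3 genes of the hemidesmosome plaque list were called. COL17A1, the transmembrane collagen that links α6β4 to laminin-332, rose by 0.68 (edgeR adjusted p = 0.0040) from a low level of 2.86 ± 0.182 CPM. DST, a plakin that links the plaque to keratin, rose by 0.14 (edgeR adjusted p = 0.0024), though its groups overlapped on TPM. PLEC, the plakin that binds ITGB4, fell by 0.37 (edgeR adjusted p = 4.5e-07).

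Of 24 tested activators and plaque proteins of integrin adhesions, 4 were called higher and 7 lower. FERMT1, the kindlin of epithelial cells, which activates integrins, rose by 0.44 (edgeR adjusted p = 1.5e-06), and the adaptor paxillin, PXN, rose by 0.43 (edgeR adjusted p = 5.8e-07). FERMT3, the kindlin of blood cells, fell by 0.66 (edgeR adjusted p = 0.036) at under 2 CPM, and its groups overlapped on TPM. LIMS1, the PINCH adaptor of the integrin-linked kinase complex, fell by 0.62 (edgeR adjusted p = 2.8e-07), from 71.4 ± 5.44 to 46.6 ± 6.45 CPM (SD, n = 3).

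Of 10 tested ligands of integrins other than laminins and collagens, 2 were called higher and 3 lower. LTBP1, which holds latent TGF-β in the matrix, rose by 0.83 (edgeR adjusted p = 5.9e-07), and TGFB1, whose latent form binds αv integrins, rose by 0.62 (edgeR adjusted p = 3.2e-07). Osteopontin, SPP1, a ligand of αv integrins, fell by 1.32 (edgeR adjusted p = 9.6e-07), from 8.96 ± 0.901 to 3.59 ± 0.291 CPM (SD, n = 3). Tenascin C, TNC, had 52 counts in all and was called lower (edgeR adjusted p = 0.0021), with 0.542 ± 0.0537 CPM in siControl and 0.0948 ± 0.0547 CPM in siNONO (SD, n = 3). ITGB8, which binds latent TGF-β with αv, was among the members called higher, but not in DESeq2 or on TPM. Its partner ITGAV was not called, and a link between these genes was not tested.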

How the data were processed

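Trimming with sickle, alignment by STAR to transcripts of GENCODE version 34 (GRCh37) and quantification by RSEM (version 1.3.1) were done by the authors. Per library, the estimated count, the TPM, the FPKM and transcript lengths of 62492 genes were deposited. Estimated counts were deposited without normalization, the deposited TPM values are scaled for length and library size, and the deposited FPKM values were not used. Libraries were made with a stranded kit, but the strand setting of the counting is not given in the sources used here, so reads of overlapping antisense genes may be shared with members such as ITGAE and LAMA5.

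Gene symbols were matched for 62211 of the 62492 identifiers. The members and the lists of related genes and markers were chosen with earlier results of these data known. Counts were rounded and tested with edgeR (version 4.0.16, R version 4.3.3; quasi-likelihood F-test in the edgeR 3 form, TMM scaling, filterByExpr, Set as block) with Benjamini-Hochberg adjustment over 17000 genes. CPM used TMM-scaled totals, and each standard error was the size of the log2 fold change over the square root of F. Called means an adjusted p of at most 0.05. Named genes were NONO, every member, and from each list of related genes the 2 highest and 2 lowest called log2 fold changes. Other genes are named as cell type markers or as overlapping genes, and the markers named were picked from their lists after their values were seen. The values of 1 member are not reported here, though counts over the family include it. Positions of genes come from GENCODE version 44 mapped to GRCh37, and promoters from RefSeq on GRCh38.p14.

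Library totals lay between 21765393 and 32659002. The biological coefficient of variation was 3.51%. The limit that a count of 0 allows was set at 3 counts and covers counting error only. The labels call the libraries separate Sets, and p-values measure only the spread between these libraries. No 2 libraries of a group agreed within sampling noise (chi-square per gene of 2.82 to 9.96). Set numbers come from the labels and were taken to pair the libraries. Deviations from the group means correlated at 0.358, 0.210 and 0.425 within Sets 1, 2 and 3 over 11722 genes. Between Sets they ran from -0.341 to 0.116. Since the deviations of each group sum to 0, positive values within Sets lower those between Sets. This contrast is therefore partly built in. In a simulation of siNONO against siControl in which 200 of 16754 genes were changed by a fold of 2, the test recovered 94.5% with 19 false calls. The simulation held no Set effect and no smaller changes, so it does not show how well changes as small as most here are found. Alternatives were no block, other scalings and filters, 2 other forms of the test, DESeq2 (version 1.42.0), limma (version 3.58.1) on log2(TPM + 1) and log2(TPM + 0.1), and each library left out in turn. These alternatives are not independent checks. With the Set as block, leaving out either library of a Set leaves its partner without a comparison.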

Additional observations from a re-analysis of the deposited data

How the results depend on the processing

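Of the 14 called members, 10 were called in the same direction under all 16 alternatives, and the others, ITGA3, ITGB1, ITGB8 and LAMA3, were lost under at least 1. Without the replicate block, 6164 genes and 12 members were called (6 higher and 6 lower), NONO stood at -2.40, and ITGB1 and LAMA3 were lost. DESeq2 called 4923 genes, 2478 higher and 2445 lower, and 12 members, but gave ITGA9, ITGAM, ITGB3, ITGB7 and LAMA1 no adjusted p. On log2(TPM + 1) limma called 5257 genes, 1643 of them higher, and on log2(TPM + 0.1) it called 5250, 1638 of them higher. Either way 4 members were higher, and the member median was -0.11 and -0.12, beside -0.07 and -0.09 over all genes. On log2(TPM + 1) and log2(TPM + 0.1) the log2 fold change turned negative for ITGA1 (-0.17, -0.29), ITGA9 (-0.17, -0.42), ITGAM (-0.27, -0.66), ITGB1 (-0.0254, -0.0255), ITGB3 (-0.33, -0.92), ITGB4 (-0.10, -0.10) and ITGB5 (-0.0476, -0.0482). ITGB5 also turned with library size alone (-0.0138), and LAMA2 without a filter on low counts (0.00963). With each library left out in turn, the member median ran from 0.0494 to 0.0971, and the members called ran from 12 to 16. Signs turned in these fits for ITGA9 (-0.15 to 0.28), ITGAM (-0.0382 to 0.81), ITGAV (-0.00461 to 0.0531), ITGB5 (-0.0224 to 0.0332), ITGB7 (-0.40 to 0.21) and LAMA2 (-0.0169 to 0.0116), none of them called. The cause of these shifts was not tested. At least 1 alternative called 5 members that were not called here, ITGA1, ITGAE, ITGAX, ITGB3 and LAMA2, in the same direction. With a library left out, ITGA2B ran from -0.39 to -0.055, ITGAE from -0.22 to -0.0474 and ITGAX from 0.26 to 0.60. Depth limits the values of ITGAM, ITGB3, ITGB7 and LAMA1.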
